A study of Mus musculus with 8 samples.

Results

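In a mouse liver ductal cell data set of 47729 genes, 6 protein-coding genes stood high in the first day of organoid culture. They were lower both before it and in formed organoids, though not all of them were low there. The 6 were Fxyd5, Nqo1, Flot1, Spsb1, Rgs5 and Acy1. They were selected on measured values: the lowest of the 12 h and 24 h libraries had to reach 10 RPKM and to be at least 2.5 times the highest value among the fresh and organoid libraries. RPKM is the number of reads scaled to gene length and to the depth of the library. The pattern over those 7 libraries is therefore how the genes were found and is given below as a description, with no test. The library titled 48h had no part in the selection, and the first day here means the 12 h and 24 h libraries by title.

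The study followed EpCAM+ liver ductal cells as they were placed in organoid culture, where bile duct epithelium grows into hollow epithelial structures in a gel of basement membrane proteins. The donors were adult male C57/B6 mice with healthy livers, with no genetic change or injury named, and the cells were isolated by FACS, a fluorescence sort, for EpCAM, a surface adhesion protein of bile duct epithelium. The groups were freshly isolated cells (2 libraries), cells kept in Matrigel and organoid medium for 12 h (2 libraries) or 24 h (1 library), 1 library titled 48h, and organoids after 6 days (2 libraries). The time point and description of the library titled 48h say 24 h, so it is called by its title throughout and its time is uncertain. Values are listed in the order of the titles, which need not be the order in time for this library. The labels do not tie replicates to different animals or cultures, and the p-values below reflect library-to-library spread, which may be technical. Each value is a mean over many sorted or cultured cells, in which fewer cells of a type and less RNA per cell cannot be told apart.

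The 6 genes serve different parts of the cell. Nqo1 is a cytosolic enzyme that reduces quinones and is a classical target of NRF2, the transcription factor that turns on genes of antioxidant defence and detoxification. Acy1 removes the acetyl group from N-acetylated amino acids, which lets the amino acids be used again. Fxyd5, also called dysadherin, is a small membrane protein of the family that binds and tunes the Na,K-ATPase, and Flot1 is a flotillin, a scaffold protein on the inner face of lipid rafts. Rgs5 speeds GTP hydrolysis by G protein alpha subunits, which ends signalling from G protein-coupled receptors, and is best known from pericytes. Spsb1 is a substrate receptor of a ubiquitin ligase that marks inducible nitric oxide synthase for breakdown.

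RefSeq promoters on GRCm38.p6, from 250 bases before to 50 bases after the annotated start, were held for 5 of the 6 genes, all but Flot1. Those of Fxyd5 and Nqo1 are shown because these genes had the largest first-day excess, and that of Rgs5 because it had the highest level. They lie at chr7:31042282-31042581 on the minus strand, chr8:107403156-107403455 on the minus strand and chr1:169655251-169655550 on the plus strand. Each reads 5′ to 3′ along the gene, and capitals mark a TATA box (TATAAA) or a GC box (GGGCGG, or its reverse complement).
Fxyd5: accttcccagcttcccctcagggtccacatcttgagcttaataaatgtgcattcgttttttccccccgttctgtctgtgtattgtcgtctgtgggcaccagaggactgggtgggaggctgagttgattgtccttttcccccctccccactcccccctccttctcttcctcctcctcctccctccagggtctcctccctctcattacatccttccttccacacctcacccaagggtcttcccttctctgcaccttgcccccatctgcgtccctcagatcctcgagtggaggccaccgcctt
Nqo1: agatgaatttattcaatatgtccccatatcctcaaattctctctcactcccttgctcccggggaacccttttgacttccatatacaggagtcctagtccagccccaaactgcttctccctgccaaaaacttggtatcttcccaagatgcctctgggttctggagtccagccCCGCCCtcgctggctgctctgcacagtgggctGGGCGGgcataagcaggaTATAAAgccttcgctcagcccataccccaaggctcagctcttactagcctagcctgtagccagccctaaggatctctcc
Rgs5: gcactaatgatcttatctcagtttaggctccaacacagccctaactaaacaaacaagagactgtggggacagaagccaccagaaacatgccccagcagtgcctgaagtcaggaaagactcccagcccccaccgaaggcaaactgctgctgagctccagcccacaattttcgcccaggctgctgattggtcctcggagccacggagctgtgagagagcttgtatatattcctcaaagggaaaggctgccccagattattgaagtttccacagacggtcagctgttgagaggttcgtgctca
The TATA box of Nqo1 began at base 222 of the 300, and this motif was found in 1 of the 5 promoters and in 12.7% of all 16387 RefSeq promoters of the same length. GC boxes were found in 3 of the 5, namely Nqo1, Spsb1 and Acy1, and in 48.2% of all promoters. The E-box CACGTG was found in that of Acy1 alone among the 5, and in 8.14% of all promoters. Both strands were searched for each motif, within these windows only. Sequence further upstream was not searched, so a 0 does not mean that Nqo1 or another of the genes lacks the motif. The antioxidant response element core TGACNNNGC was found in 0 of the 5 windows and in 13.4% of all, and the AP-1 motif TGANTCA in 0 of the 5 and in 7.07% of all. Likewise 0 of the 5 held TGACGTCA, the CRE (2.44% of all), CCGGAAG, an ETS motif (12.3%), or GGAATG, a TEAD motif (13.2%). The observed over expected CpG ratio was 0.288 for Fxyd5, 0.249 for Nqo1, 0.294 for Rgs5, 0.545 for Acy1 and 0.899 for Spsb1, beside a median of 0.602 over all promoters. Spsb1 alone lay above the median CpG ratio. No searched motif was found in all 5, but with 5 promoters beside these shares nothing particular to them is read from the counts.

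Of 21697 protein-coding genes with a symbol, 3574 had at least 10 RPKM in all 3 first-day libraries. In 306 of these (8.56%) the lowest first-day value was at least 2.5 times both fresh values, and in 63 (1.76%) it was at least 2.5 times both organoid values. Both held for 6 genes (0.168%). Over the 3574 genes the median ratio of the lowest first-day value to the highest fresh value was 1.06, and that to the highest organoid value was 0.714. Such a ratio of a lowest to a highest value falls below that of the means and does not place the usual gene.

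**Figure D1:**
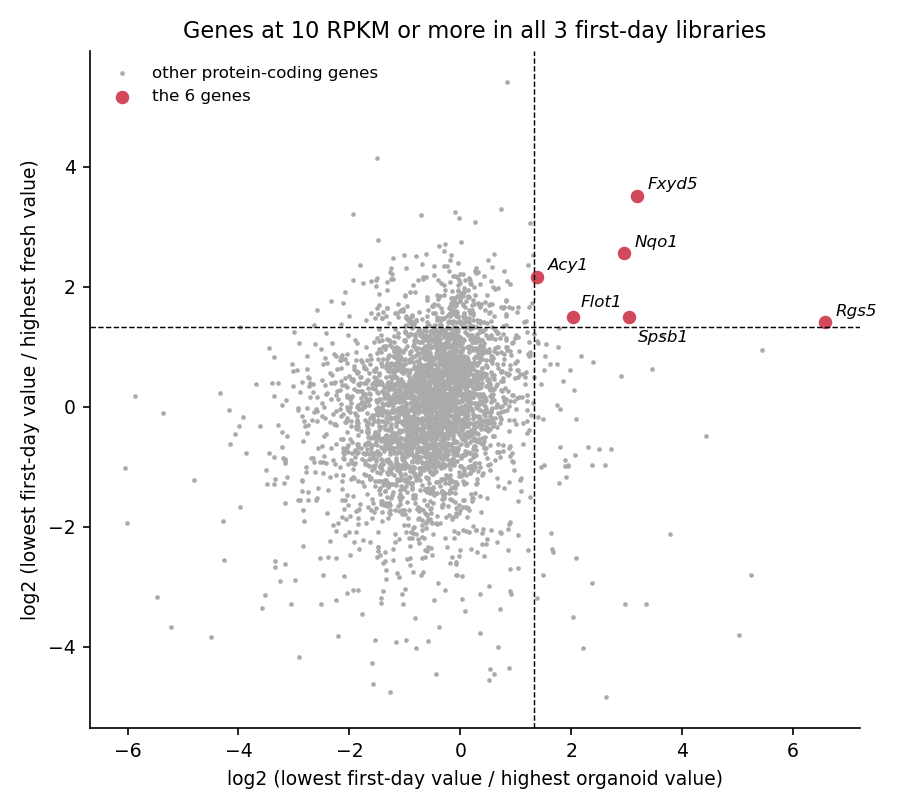
Each point is 1 of 3574 protein-coding genes, with the log2 ratio of its lowest first-day value to its highest organoid value across and to its highest fresh value upward; dashed lines mark 2.5-fold. The 6 selected genes are the points beyond both lines, with Rgs5 far to the right (the organoid side) and Fxyd5 the highest of the 6 on the fresh side.

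Among the enzymes, Nqo1 (chr8:107388225-107403206, minus strand) was at 1.82 and 3.10 RPKM in fresh cells, 23.8 and 41.9 at 12 h, 18.3 at 24 h, then 10.9 in the titled 48h library and 0.0465 and 2.36 in organoids. Its highest values were the 12 h pair, and the 24 h value lay below both. It averaged 32.8 ± 12.8 RPKM at 12 h and 2.46 ± 0.908 RPKM in fresh cells (SD, n = 2 each), a 13.4-fold difference, and its lowest first-day value was 5.91 times its highest fresh or organoid value. The value in organoid replicate 1 stood for 1 read, with an exact Poisson interval at 95% confidence of 0.00118 to 0.259 RPKM that covers counting error only. The replicate organoid libraries thus differed widely for Nqo1, while both lay below all first-day values.

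Acy1 (chr9:106432981-106438319, minus strand) was at 3.80 and 2.78 RPKM in fresh cells, 25.9 and 17.1 at 12 h, 25.02 at 24 h, then 10.7 in the titled 48h library and 3.75 and 6.52 in organoids. The 24 h value lay between the 12 h pair, so the first-day times could not be ordered. Acy1 averaged 21.5 ± 6.26 RPKM at 12 h and 3.29 ± 0.720 RPKM in fresh cells (SD, n = 2 each), a 6.53-fold difference. Its lowest first-day value was 2.62 times its highest organoid value, the smallest excess of the 6.

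Among the membrane proteins, Fxyd5 (chr7:31032722-31042481, minus strand) was at 2.02 and 2.20 RPKM in fresh cells, 25.3 and 41.0 at 12 h, 27.7 at 24 h, then 6.08 in the titled 48h library and 2.59 and 2.78 in organoids. Its fresh and organoid values were close to each other and its 24 h value lay within the 12 h pair. It averaged 33.1 ± 11.1 RPKM at 12 h and 2.11 ± 0.132 RPKM in fresh cells (SD, n = 2 each), a 15.7-fold difference, and its lowest first-day value was 9.08 times its highest fresh or organoid value, the largest excess of the 6.

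Flot1 (chr17:35823230-35832791, plus strand) was at 16.6 and 21.5 RPKM in fresh cells, 60.5 and 74.6 at 12 h, 78.4 at 24 h, then 31.4 in the titled 48h library and 13.8 and 14.9 in organoids. Unlike Fxyd5 it was well expressed in all 8 libraries. Its mean was 67.6 ± 9.94 RPKM at 12 h and 19.1 ± 3.50 RPKM in fresh cells (SD, n = 2 each), a 3.54-fold difference, and its lowest first-day value was 2.81 times its highest fresh value.

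Of the signalling proteins, Rgs5 (chr1:169655501-169695813, plus strand) was at 66.9 and 61.0 RPKM in fresh cells, 179 and 389 at 12 h, 438 at 24 h, then 34.9 in the titled 48h library and 0.254 and 1.88 in organoids. It had the highest first-day level of the 6, at a mean of 335 RPKM over the 3 libraries, and the widest range across the time course. The mean was 284 ± 149 RPKM at 12 h and 64.0 ± 4.21 RPKM in fresh cells (SD, n = 2 each), a 4.43-fold difference. In organoids it averaged 1.07 ± 1.15 RPKM (SD, n = 2), and the fresh mean was 59.9 times as high. The value in organoid replicate 1 stood for 16 reads, with an exact Poisson interval of 0.145 to 0.413 RPKM.

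Spsb1 (chr4:149896283-149955043, minus strand) was at 11.3 and 10.1 RPKM in fresh cells, 31.8 and 31.9 at 12 h, 73.3 at 24 h, then 7.26 in the titled 48h library and 1.18 and 3.85 in organoids. Its 12 h libraries were the closest pair of any of the 6 genes, and the single 24 h library was 2.30 times their mean. It averaged 31.9 ± 0.0759 RPKM at 12 h and 10.7 ± 0.861 RPKM in fresh cells (SD, n = 2 each), a 2.97-fold difference, and 2.52 ± 1.88 RPKM in organoids (SD, n = 2).

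**Figure D2:**
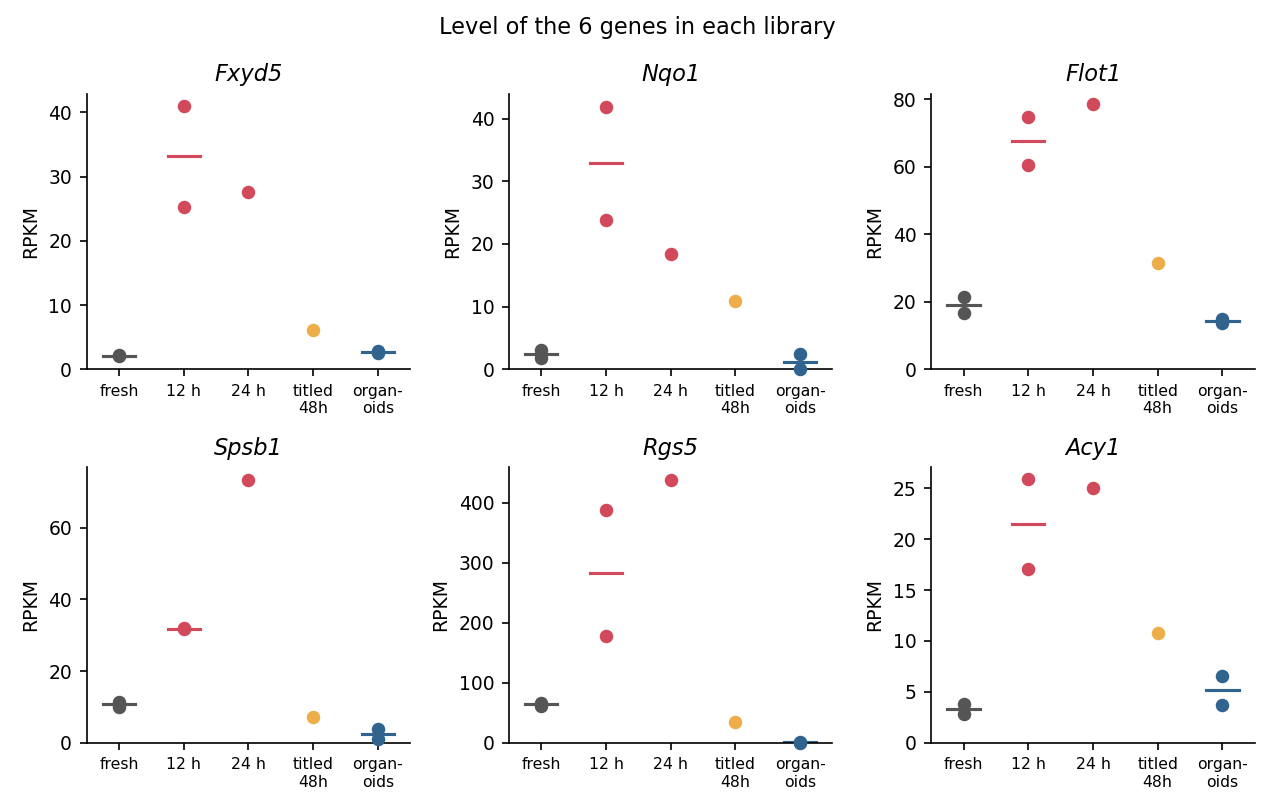
RPKM of each of the 6 genes in each of the 8 libraries, 1 dot per library, with a line at the mean of each group of 2. Groups run in the order of their titles, the time of the titled 48h library being uncertain, and each panel has its own linear axis. The 12 h and 24 h dots stand above all others in every panel, as the selection required, and the titled 48h dot lies below them.

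The 6 genes differed in where the first-day maximum fell. The 24 h value lay above both 12 h values for Flot1, Spsb1 and Rgs5, between them for Fxyd5 and Acy1, and below both for Nqo1. The ratio of the 24 h value to the 12 h mean ran between 0.557 for Nqo1 and 2.30 for Spsb1. With 1 library titled 24 h there was no sure replicate check on this order, and the 12 h replicates themselves differed by up to 2.18-fold, for Rgs5. The time point of the library titled 48h also reads 24 h. If that holds, it is a second 24 h library, and all 6 genes were lower in it than in the first. Spsb1 was at 7.26 RPKM in it beside 73.3, Rgs5 at 34.9 beside 438 and Fxyd5 at 6.08 beside 27.7. The 24 h levels would then not be reproduced. In the first-day mean the order of levels was Rgs5 (335 RPKM), Flot1 (71.2), Spsb1 (45.7), Fxyd5 (31.3), Nqo1 (28.0) and Acy1 (22.7). The ranges of neighbours in that order overlapped from Flot1 downward, whereas all 3 first-day values of Rgs5 lay above those of the other 5 genes.

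They differed too in which side of the peak was lower. Fxyd5 and Acy1 had lower means in fresh cells than in organoids, and the other 4 had lower means in organoids. For Fxyd5 the means were 2.69 ± 0.140 RPKM in organoids and 2.11 ± 0.132 RPKM in fresh cells (SD, n = 2 each). For Acy1 they were 5.14 ± 1.96 RPKM in organoids and 3.29 ± 0.720 RPKM in fresh cells (SD, n = 2 each), and 1 of the organoid values lay within the fresh pair.

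The library titled 48h was the one library that the selection did not use. In it all 6 genes were below both 12 h values, which held for 39.4% of the 3574 first-day genes, and below the 24 h value, which held for 52.3%. All 6 were also above both organoid values, against 42.2% of first-day genes. Relative to fresh cells they parted: Fxyd5, Nqo1, Flot1 and Acy1 lay above both fresh values, while Spsb1 and Rgs5 lay below both, which 64.9% and 25.7% of first-day genes did. The first-day values were selected to be high and the fresh and organoid values to be low, so these counts are a description and no test.

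The titled 48h value was 0.123 times the 12 h mean for Rgs5, 0.183 for Fxyd5, 0.228 for Spsb1, 0.333 for Nqo1, 0.464 for Flot1 and 0.499 for Acy1. Asked of this library alone, the bar of 10 RPKM and 2.5 times the highest fresh or organoid value was met by 1 of the 6, Nqo1, at 3.53 times. It was met by 11 of the 3574 first-day genes, or 0.308%. Fxyd5 was at 2.18 times its highest fresh or organoid value but at 6.08 RPKM, and Rgs5 was at 0.522 times. Nqo1 no longer met the bar when the libraries were scaled to a common median. If the library titled 48h is a second 24 h one, as its time point reads, Nqo1 alone of the 6 would meet the selection. The first-day peak of the other genes would then not be reproduced at that bar.

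limma, a linear model with variances moderated across genes, was fitted to log2(RPKM + 1) of 12900 genes, with 1 coefficient per group and p-values adjusted by Benjamini-Hochberg. The single titled 48h library was assumed to vary like the replicated groups. Against fresh cells, which the selection used, 0 of the 6 genes passed an adjusted p of 0.05, and 427 of all genes tested did (3.31%). At an unadjusted p under 0.05 there was 1 of the 6, Acy1, beside 3026 of all genes. Against 12 h, which the selection also used, 0 of the 6 passed, as against 1 of all genes (0.00775%). An unadjusted p under 0.05 was reached by 4 of the 6, beside 1600 of all genes. The selection favours values above fresh cells and below 12 h, so nothing is read from either count. The median difference of the 6 was 0.94 on the log2 scale against fresh cells, beside 0.30 over all genes tested, and −1.72 against 12 h, beside 0.02.

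For Nqo1 the titled 48h library was 1.81 ± 0.81 (SE) above fresh cells on the log2(RPKM + 1) scale with an interval at 95% confidence of −0.12 to 3.75. For Acy1 the difference was 1.46, with an interval of 0.14 to 2.78. Fxyd5 was 1.19 above fresh cells, with an interval of −0.06 to 2.44, and Flot1 was 0.70 above, with an interval of −0.28 to 1.68. Rgs5 stood at −0.85, with an interval of −2.44 to 0.73, and Spsb1 at −0.50, with an interval of −1.89 to 0.88. The intervals were thus wide for each gene, and a level equal to that of fresh cells lay inside 5 of the 6. The fresh values were selected to be low, so the intervals describe spread and are no test. This holds for Acy1 too, whose interval lay above 0.

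From the 12 h libraries, the titled 48h library differed by −2.88 for Rgs5, −2.23 for Fxyd5, −1.99 for Spsb1, −1.45 for Nqo1, −1.08 for Flot1 and −0.91 for Acy1 on the log2(RPKM + 1) scale. No gene-by-gene test is given here, since the 12 h values were selected to be high. Each log2 difference understates the change of genes near 0 because of the added 1 RPKM.

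**Figure D3:**
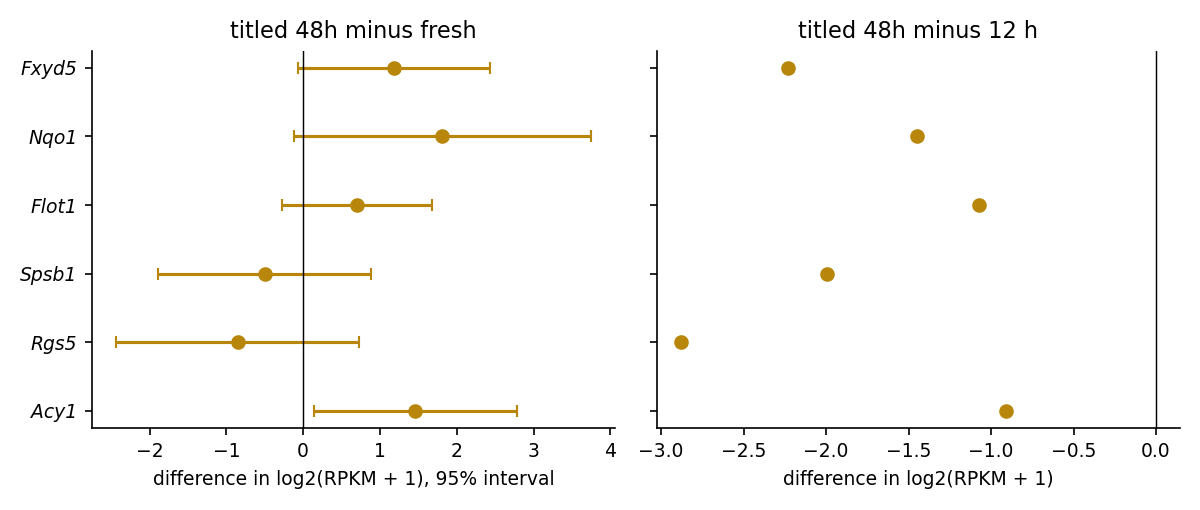
Difference in log2(RPKM + 1) of the library titled 48h from 12 h and from fresh cells for each of the 6 genes, with the 95% interval of limma as bars for the difference from fresh cells and a line at 0. Differences from 12 h are all below 0 and run between −2.88 and −0.91, while those from fresh cells run between −0.85 and 1.81.

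In the 12 h against fresh comparison, 398 of 12900 genes were called higher (3.09%) and 480 lower (3.72%). Fxyd5, Nqo1, Flot1 and Acy1 were among those higher, from which nothing is read because the selection used these libraries. The median difference over the 6 was 2.20 on the log2 scale, beside 0.24 over all genes tested. Among the 7319 genes at a mean of 5 RPKM or more the median shift was 0.40, and with libraries centred on their medians the calls were 300 higher and 839 lower.

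Nqo1 was the single gene of the 6 held by any of the 23 gene lists of pathways, complexes and processes, which had 736 entries. Its list was that of NRF2 targets, with 28 genes in the table, of which 27 were tested. At 12 h 4 of these were called higher and 2 lower than in fresh cells, with a median difference of 0.47 on the log2 scale. The 4 were Nqo1, Abcc4, an exporter of organic anions, Taldo1 of the pentose phosphate pathway, and Txn1, thioredoxin. Nqo1 was selected on these libraries and is included in the count and the median, so nothing is read from its call.

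Txn1 was at 868 and 1020 RPKM at 12 h, against 290 and 280 RPKM in fresh cells, a difference of 1.72 ± 0.33 (SE) on the log2 scale with a limma adjusted p of 0.0365. Abcc4 was at 56.8 and 61.8 RPKM at 12 h, against 13.5 and 15.4 RPKM in fresh cells, a difference of 1.97 ± 0.43 (SE) with a limma adjusted p of 0.0472. Taldo1 was at 412 and 387 RPKM at 12 h, against 138 and 92.7 RPKM in fresh cells, a difference of 1.81 ± 0.37 (SE) with a limma adjusted p of 0.0413. In these 3 genes the 12 h and fresh values did not overlap. In organoids Txn1 was at 490 and 527 RPKM and Abcc4 at 22.9 and 48.7, above both fresh values, and Taldo1 at 133 and 195 RPKM, which overlapped them.

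The genes called lower were Gstm1, a glutathione transferase, and Osgin1, a regulator of cell growth under oxidative stress. Gstm1 was at 18.8 and 29.9 RPKM at 12 h, against 150 and 156 RPKM in fresh cells, a difference of −2.63 with a limma adjusted p of 0.0239. Osgin1 was at 57.4 and 48.1 RPKM at 12 h, against 215 and 303 RPKM in fresh cells, a difference of −2.26 with a limma adjusted p of 0.0335. Hmox1, the heme-degrading enzyme that is another classical target, was at 52.97 and 70.4 RPKM at 12 h, against 233 and 148 RPKM in fresh cells, which did not pass (adjusted p = 0.154 by limma). NRF2 targets thus differed in both directions on the first day.

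The calls on this list rested on every fresh and 12 h library. With any 1 of these 4 left out, 0 were called higher and 0 lower by limma, where 4 to 7 were higher and 3 lower at an unadjusted p under 0.05. Without the filter on low values 0 were called higher and 1 lower, with 8 and 3 at an unadjusted p under 0.05. With either organoid library left out, 5 were called higher and 4 lower. Centring the libraries on their medians left 2 higher and 3 lower. In the library titled 48h, 0 of the 27 were called higher than fresh cells by limma and 2 lower, Gstm1 and the epoxide hydrolase gene Ephx1, with a median difference of 0.16. At an unadjusted p under 0.05 there were 4 higher and 6 lower, beside 3026 of all 12900 genes in either direction (23.5%). Nothing particular to the list is read from these counts.

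Measured as for the selection, the lowest first-day value was above the highest fresh or organoid value in 5 of the 28, and at least 2.5 times as high in Nqo1. All 5 were among the 22 list genes at 10 RPKM or more in all first-day libraries. Over all 3574 protein-coding genes at that level, 509 (14.2%) were above, of which 6 (0.168%) were past 2.5-fold. Nqo1 is in both list counts by its selection, so nothing about NRF2 targets is read from its place there. The other 4 were Gclm, the modifier subunit of glutamate-cysteine ligase, at 1.64, Txn1 at 1.36, Taldo1 at 1.27 and the ferritin heavy chain Fth1 at 1.26. Gclm was at 30.9 and 26.7 RPKM in fresh cells, 52.4 and 80.4 at 12 h, 50.7 at 24 h, then 30.2 in the titled 48h library and 22.2 and 29.8 in organoids. In the titled 48h library Gclm was thus within its fresh pair, where Nqo1 was above both fresh values. Gclc, the catalytic subunit of the same enzyme, was at 105 and 73.6 RPKM in fresh cells, 76.4 and 101 at 12 h, and 15.4 at 24 h, with no such peak.

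**Figure D4:**
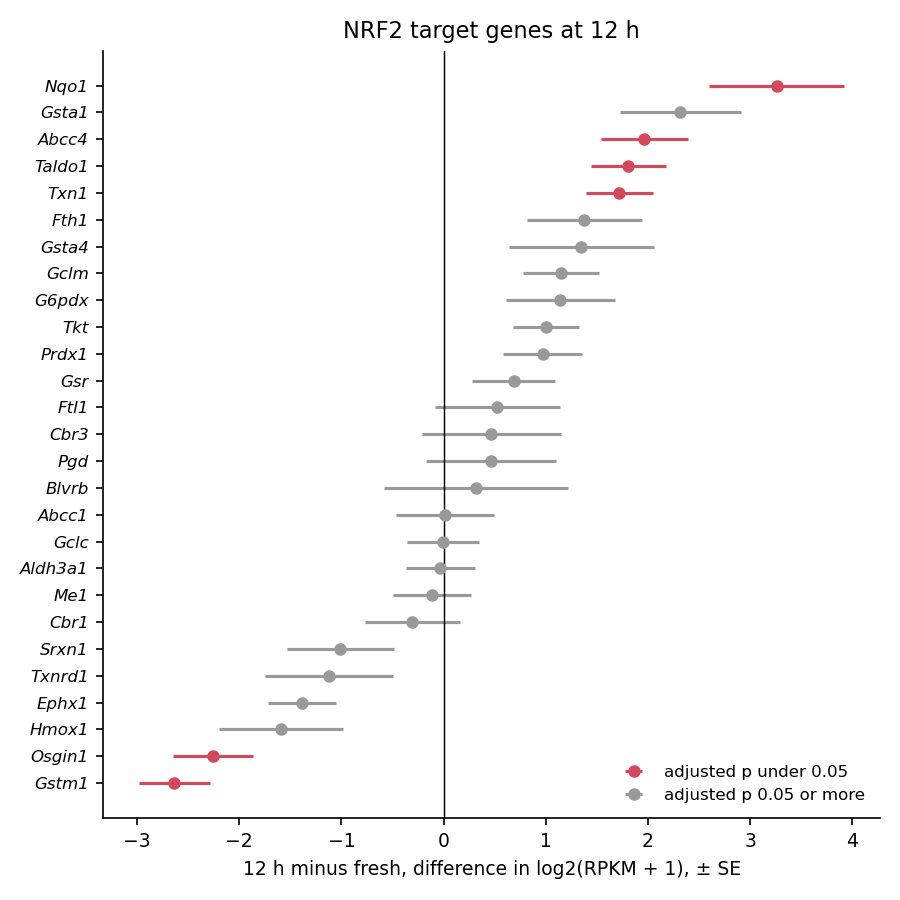
Difference in log2(RPKM + 1) of 12 h cultures from fresh cells for the 27 tested NRF2 targets, with the standard error of limma as bars and genes called at an adjusted p under 0.05 in red. Nqo1, which was selected on these libraries, is at the top at 3.26, and Gstm1 is at the bottom at −2.63.

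Relatives of the 6 genes were taken by symbol once the 6 were known and so are given as values alone. They had no common direction between fresh cells and 12 h. Of 7 FXYD genes in the table, 3 reached 10 RPKM in any library. Fxyd1, which lies 9196 bases from Fxyd5, was at 15.5 and 21.7 RPKM in fresh cells, 2.03 and 0.168 at 12 h, 5.53 at 24 h, then 0.125 in the titled 48h library and 0 and 0.0226 in organoids. Fxyd3 was between 7.33 and 34.5 RPKM in all 8 libraries. Fresh cells thus carried mainly Fxyd1 and Fxyd3, and the 12 h and 24 h cultures mainly Fxyd5 and Fxyd3, on the RPKM scale.

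Beta subunits of the pump that FXYD proteins bind differed in direction. Atp1b1 was at 87.6 and 80.5 RPKM at 12 h, against 258 and 235 RPKM in fresh cells, and Atp1b3 was at 87.4 and 123 RPKM at 12 h, against 61.8 and 62.2 RPKM in fresh cells.

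Of 21 RGS genes, 5 reached 10 RPKM in any library. Rgs2 was at 39.5 and 52.5 RPKM in fresh cells, 3.01 and 13.6 at 12 h, 21.3 at 24 h, then 5.73 in the titled 48h library and 0.239 and 6.41 in organoids. Rgs19 was at 6.67 and 7.95 RPKM in fresh cells, 66.8 and 78.0 at 12 h, 40.2 at 24 h, then 40.8 in the titled 48h library and 24.0 and 49.1 in organoids. Rgs5, Rgs2 and Rgs19 were thus all unlike in shape: Rgs2 was highest in fresh cells, and Rgs19 was still high in organoids.

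Flot2, which forms complexes with Flot1, was at 33.2 and 38.5 RPKM in fresh cells, 80.1 and 39.8 at 12 h, 78.5 at 24 h, then 71.7 in the titled 48h library and 35.1 and 54.3 in organoids, with overlapping groups. Nqo2, the other quinone reductase, was at 12.3 and 10.2 RPKM at 12 h, against 6.75 and 6.32 RPKM in fresh cells. It was at 7.09 RPKM at 24 h and at 6.13 and 11.1 RPKM in organoids. Among SPSB genes, Spsb2 was at 14.6 and 15.6 RPKM at 12 h, against 6.17 and 4.77 RPKM in fresh cells, but at 2.67 at 24 h. Acy3, the aminoacylase that acts on mercapturic acids and acetylated aromatic amino acids, was at 0 and 2.35 RPKM at 12 h, against 4.97 and 8.80 RPKM in fresh cells.

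Within 50000 bases of the 6 genes lay 23 other protein-coding genes, of which 9 had at least 10 RPKM in all first-day libraries. The lowest first-day value was above the highest fresh or organoid value in 2 of the 9 and at least 2.5 times as high in 0. Over all 3574 such genes the shares were 14.2% and 0.168%, so nothing particular to the neighbours is read from these counts. The closer of the 2 was Abhd14a, a serine hydrolase gene 1731 bases from Acy1 on the same strand, at 6.47 and 8.72 RPKM in fresh cells, 30.7 and 56.7 at 12 h, 27.4 at 24 h, then 30.7 in the titled 48h library and 10.5 and 16.0 in organoids.

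Flot1 starts 306 bases past the end of Ier3, an immediate early gene on the same strand. Ier3 was at 813 and 878 RPKM at 12 h, against 2373 and 2672 RPKM in fresh cells, the opposite direction to Flot1. An antisense gene, Gm13070, overlaps Spsb1, and a microRNA gene, Mir7050, overlaps Fxyd5, and both were listed at 0 in every library. The use of strand in read counting is not stated in these sources.

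The genes with the most similar profile to each of the 6 were found by Pearson correlation of log2(RPKM + 1) over the 8 libraries, among 6952 genes, by a rule added after the values were seen. All points share the same 8 libraries, and no p is given. For Nqo1 this was Rdx, which encodes radixin, a linker of actin to the membrane (r = 0.989), and for Acy1 it was Tmem201, a nuclear envelope protein (0.983). Rgs5 was closest to Nrn1, neuritin (0.983), Spsb1 to the rRNA methyltransferase gene Dimt1 (0.979), Fxyd5 to Grk2, a kinase of G protein-coupled receptors (0.974), and Flot1 to Map3k2 (0.971). Fxyd5 and Flot1 were among each other's 3 closest genes (0.969). Both were selected for the same shape over all libraries but that titled 48h, so nothing is read from their likeness. Nrn1 had a similar loss to Rgs5, at 15.1 and 26.3 RPKM in fresh cells, 52.9 and 77.3 at 12 h, 50.9 at 24 h, then 18.3 in the titled 48h library and 0.0409 and 1.18 in organoids.

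The libraries had 13790641 to 28411233 effective reads, and genes at 1 RPKM or more numbered 8814 in the 24 h library and 10605 to 11263 in the others. Epcam was between 513 and 1175 RPKM, Krt19 between 162 and 1920 and Sox9 between 107 and 302, and 9 of 10 ductal markers were at 10 RPKM or more in every library. The tenth, the chloride channel gene Cftr, was at 0.406 and 1.93 RPKM at 12 h, against 5.72 and 9.81 RPKM in fresh cells. The summed level of the 10 was 11446 and 15952 RPKM at 12 h, against 22450 and 26023 RPKM in fresh cells. The share of mitochondrial genes in the summed RPKM was highest in the first-day libraries, at 8.83% and 8.68% at 12 h and 9.87% at 24 h, and was between 3.92% and 7.21% in the others. The part of either in the levels of the 6 genes was not tested. The summed level of 10 hepatocyte markers was 42.0 and 51.0 RPKM at 12 h, against 1045 and 957 RPKM in fresh cells. In organoids it was 29.0 and 15.8 RPKM. It was thus lower at 12 h than in fresh cells, where the 6 genes were higher, and lower again in organoids, as they were. The part of hepatocyte RNA in the levels of the 6 genes was not tested. The summed level of 8 mesothelial markers ran between 37.9 and 489 RPKM, nearly all of it Msln outside fresh cells, that of 10 endothelial markers between 0.0382 and 12.8, and that of 10 immune markers between 0.480 and 29.5.

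Because Rgs5 is widely used as a pericyte marker, markers of mesenchymal and stellate cells were set beside it. Their summed level over 10 genes was 14.7 and 4.37 RPKM in fresh cells, 2.32 and 0.125 at 12 h, 0.292 at 24 h, then 3.03 in the titled 48h library and 0.191 and 0.254 in organoids. None of the 10 reached 10 RPKM in any library, and 7 to 9 of them were at 0 in the first-day libraries, where Rgs5 was at 179 to 438 RPKM. Pdgfrb, a marker that pericytes share with other mesenchymal cells, was at 0 in 7 libraries and at 0.0128 RPKM in fresh replicate 2. The markers were chosen for mesenchymal and stellate cells at large, and the part of pericytes in the level of Rgs5 was not tested.

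The edge of the selection was not sharp. Just inside the 2.5-fold limit were Acy1 (2.62), Rgs5 (2.67) and Spsb1 (2.81), and just outside were Tmem231, a protein of the ciliary transition zone (2.49), Plpp3, a lipid phosphatase (2.47), and Ssx2ip, a centrosome protein (2.44). Tmem231 was at 4.34 and 4.12 RPKM in fresh cells, 24.99 and 27.5 at 12 h, 33.1 at 24 h, then 19.2 in the titled 48h library and 8.41 and 10.04 in organoids. Between 2 and 2.5 times lay 19 genes, and 1 further gene, Syt11, was past 2.5 times with 5 to 10 RPKM.

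The number of genes found depended on single libraries. Without organoid replicate 2 it was 65 in place of 6, and without organoid replicate 1 it was 7. Leaving out a 12 h library gave 28 or 19, leaving out the 24 h library gave 26, and leaving out a fresh library gave 11 or 9. Leaving out a library can only loosen the limits, so the 6 genes pass again by construction. With libraries scaled to a common median the number was 3, namely Fxyd5, Nqo1 and Acy1. After that scaling the ratio of lowest first-day to highest fresh or organoid value was 6.99 for Fxyd5, 4.46 for Nqo1 and 2.64 for Acy1. It was 2.17 for Spsb1, 2.12 for Flot1 and 2.07 for Rgs5. The same values selected the genes at 2.5-fold, so ratios above 2 are no independent check of the peak.

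**Figure D5:**
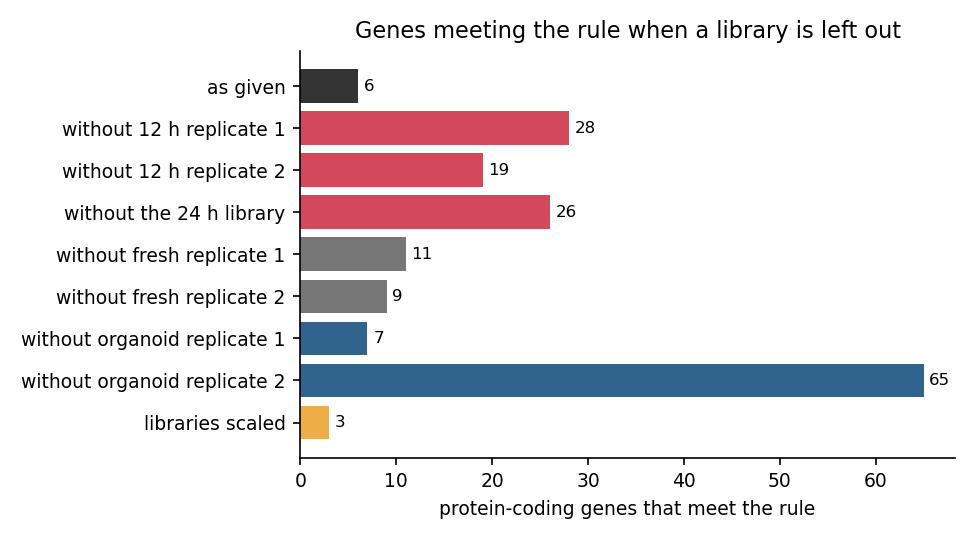
Number of protein-coding genes that meet the selection as given, with 1 library left out at a time, and with libraries scaled to a common median; bars start at 0 and carry their counts. The bar without organoid replicate 2 reaches 65, against 6 with all libraries, and the scaled bar is at 3.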

How the data were processed

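RNA from 8 mouse liver ductal cell libraries (RNeasy micro kit, Smart-seq2 and Nextera XT, per the labels' protocols) was deposited by the authors as RPKM values per gene. Per the submitters' processing notes GRCm38 was the genome build and edgeR a tool. Not given in the sources used here are aligner, counter, annotation, strandedness and any scaling. Names and coordinates came from GENCODE M21 on GRCm38, which named 47310 of 47729 identifiers. Within 0.02 reads, 90.1% to 92.9% of low values in each library were whole multiples of 1 read, which gave the effective reads.

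The 12900 genes reaching 1 RPKM in 2 or more libraries were fitted as log2(RPKM + 1) with limma 3.58.1 in R 4.3.3 (trend, two-sided), with 3 residual and 3.65 prior degrees of freedom and Benjamini-Hochberg adjustment at a threshold of 0.05. Tables were handled in Python 3.11.15 with pandas 2.3.3 and numpy 2.4.6. The fit was tested on simulated data. The selection, gene lists and tests were chosen with earlier results of these data known. Genes named beyond the 6 were the 3 just outside the limit, the called genes of the one list that holds a member (2 by size of change, Gstm1 and Osgin1, under the rule, and 3 beyond it), and others given as values and chosen after they were seen. Alternatives covered the pseudocount, filter, centring, a replicate block, the selection's limits and each replicate left out. Replicate numbers gave correlations of deviations between groups of 0.195, 0.224 and 0.0175, so they were not taken as pairs. The result of 1 gene is not reported here.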

Additional observations from a re-analysis of the deposited data

How the results depend on the processing

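The number of genes selected was 25 at 2-fold, 2 at 3-fold (Fxyd5 and Nqo1), 3 with libraries scaled to a common median and 26 without the 24 h library. It ranged from 7 to 65 with 1 replicate left out. With the 24 h library alone as the first day, an alternative chosen after seeing the data, it was 394. The number meeting the bar in the library titled 48h, 1 as reported, was 0 at a minimum of 20 RPKM, 0 after scaling and 1 to 2 with a replicate left out. For the library titled 48h, 5 of the 12 alternatives could change a given difference of the 6 genes, and all 60 such differences kept their direction. No adjusted p passed the threshold under any of the 12, which says little against 12 h, where 1 of 12900 genes was called as reported.

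Genes called at 12 h against fresh, 878 as reported, were 423 without the filter and 0 to 1176 with 1 replicate left out. The 0 came from leaving out either fresh library, with 1533 and 1340 genes at an unadjusted p under 0.05. Without 12 h replicate 1 or 2 there were 230 and 88. The 427 genes called in the titled 48h library against fresh were likewise 0 once a fresh library was left out, with 1455 and 1186 at an unadjusted p under 0.05. The fit with a replicate block called 722, and 4 NRF2 targets higher and 2 lower as before. The causes of these changes were not tested. With 1 or 2 libraries per group their number limits the precision, and reads limit it for Nqo1 and Rgs5 in organoid replicate 1.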

Other observations

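One gene that does not code for a protein in the annotation met the same limits. Trbc2, a constant segment of the T cell receptor beta chain, was at 2.08 and 0.609 RPKM in fresh cells, 20.1 and 10.4 at 12 h, 23.2 at 24 h, then 0 in the titled 48h library and 0 and 0.214 in organoids. Its near-identical copy Trbc1 was at 0 in all but the organoid libraries, at 0.0965 and 1.32 RPKM, and the treatment of shared reads is not stated in these sources. Cd3e, which defines T cells, was at 0 in all 8 libraries. Ptprc, the common leukocyte marker, was at 0.0143 RPKM in fresh replicate 1 and at 0 in the others. The source of the Trbc2 reads was not tested.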
